A study of Mus musculus with 8 samples.

Results

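Chemokines and their receptors were read as 59 mouse genes on 8 expression arrays. A gene was included when its symbol began with Ccl, Cxcl, Cx3cl, Xcl, Ccr, Cxcr, Cx3cr, Xcr or Ackr followed by a number, or was Pf4 or Ppbp. The 59 genes had 74 probes, of 32301 targets and 41174 probes on the array, and 15 of them had 2 probes. Another 10 RefSeq symbols that match the rule had no named probe here, among them Cxcl11 and Ccl26.

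RNA came from 2 lines of mouse embryonic fibroblasts (MEFs), WT TR MEFs and Keap1-/- TR MEFs (called Keap1 null below), and both carried the letters TR, which the labels do not spell out. Each line was taken from culture dishes and from allografts, which are tumours grown from injected cells in nude (nu/nu) mice, which lack a thymus and keep B, NK and myeloid cells. For the allografts, mice received 10000000 cells of WT or 3000000 of Keap1 null, and tumours were taken at 100 to 150 mm3. Each of the 4 groups had 2 arrays, each labelled from 500 ng of total RNA. Each genotype is 1 line, so line and genotype cannot be told apart. In allografts the number of injected cells differed between the lines as well, so its part cannot be told apart from that of the line. The labels do not say whether replicates 1 and 2 were separate cultures or animals, so p-values measure only the spread between arrays, which may be technical. An allograft also holds host cells, and because graft and host are both mouse, a probe reads their transcripts alike.

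Chemokines are small secreted proteins that guide leukocytes along gradients through G protein-coupled receptors. CC, CXC, CX3C and XC families are told apart by the spacing of their first cysteines, and atypical receptors (Ackr genes) bind and remove chemokines without G protein signalling. Stromal fibroblasts are known sources of Ccl2 and Cxcl12, while most of the receptors are found on leukocytes. Keap1 is the adaptor that marks the transcription factor NRF2 for degradation.

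Levels are given as the log2 of the processed intensity minus the log2 of the 75th percentile of the same array, so 0 is the level of that percentile, and levels were not compared between probes. The share of probes well above background was 60.6% to 74.7% per array, and no spot was saturated. The targeted gene Keap1 was lower in the Keap1 null line, 1.82-fold in dishes (-0.86 ± 0.17 SE, adjusted p = 0.0197, limma) and 3.23-fold in tumours (-1.69 ± 0.17 SE, adjusted p = 0.000722). Whether its probe lies in the deleted part is not recorded. Of 14 fibroblast markers, a dish array had 12 or 13 well above background and an allograft array all 14.

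Most of the 59 genes were near background in culture and measurable in the tumours. On both arrays of a group, 20 genes were well above background in WT dishes, 23 in Keap1 null dishes, 46 in WT allografts and 42 in Keap1 null allografts. A total of 48 genes passed the filter, which asked that a probe stand well above background throughout 1 group or more. The other 11 were Ccl20, Ccl21a, Ccl22, Ccl28, Ccr10, Ccr1l1, Ccr4, Ccr8, Cxcl15, Cxcl17 and Cxcr1, and they have no test. A gene passing only through its brightest group had to differ between groups, so the counts below describe the 48 and not all members.

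**Figure D1:**
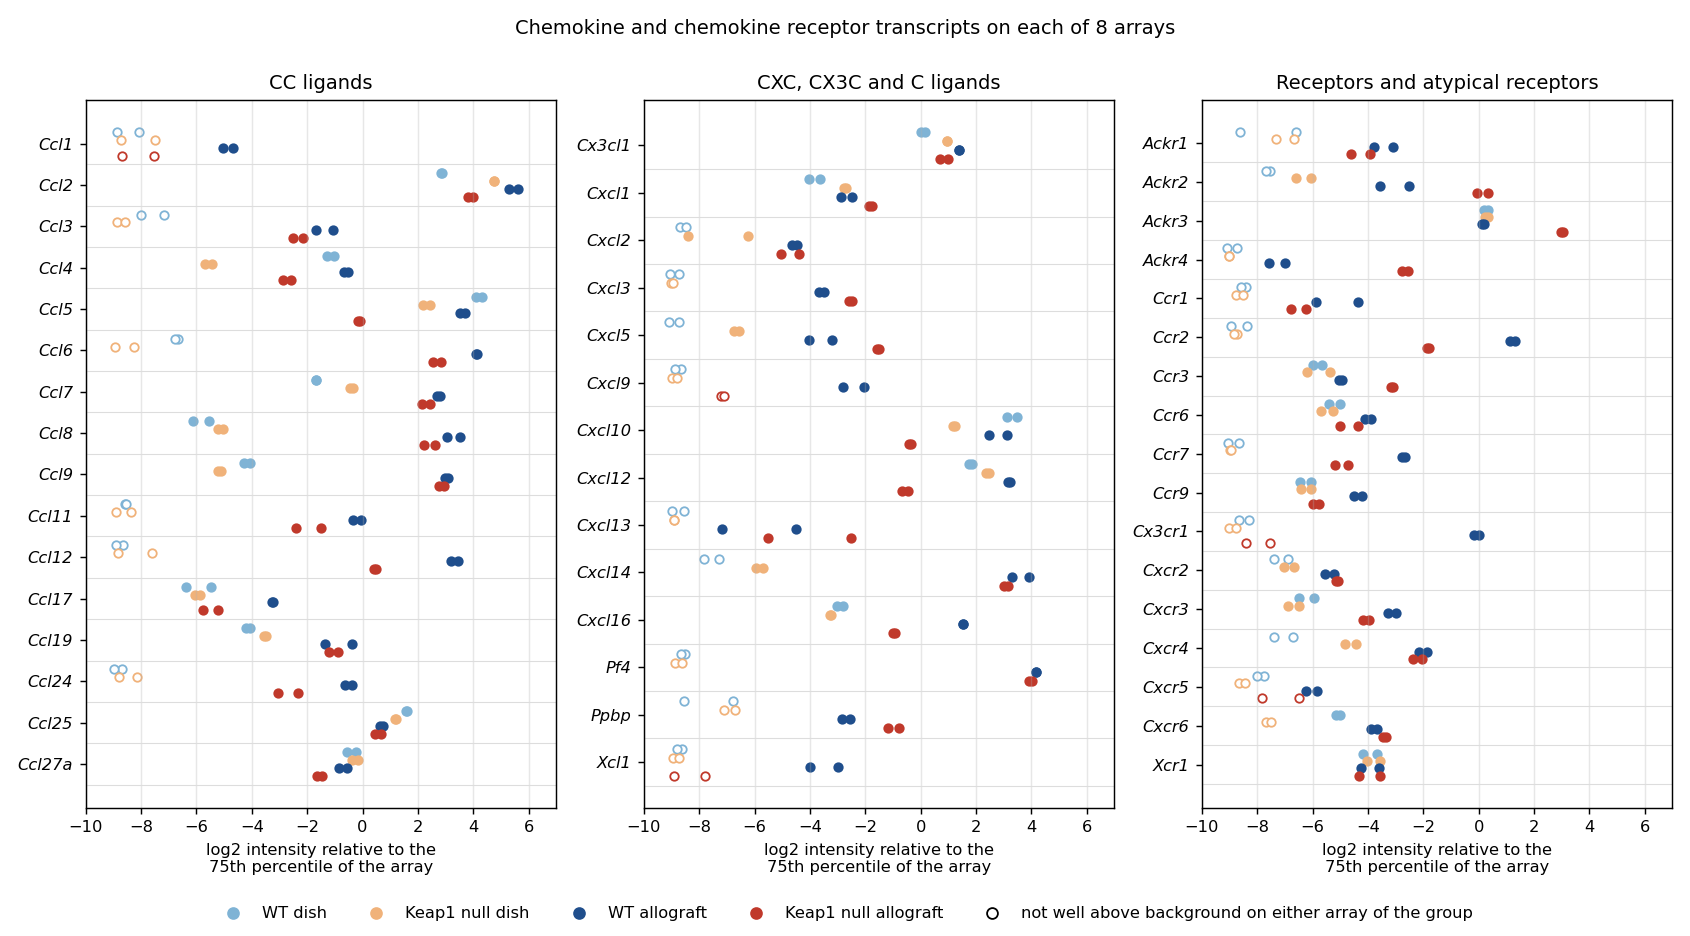
Log2 intensity over the 75th percentile of its array (x axis) for 47 of the 48 tested genes on each of 8 arrays, coloured by group, with open points where neither array of the group was well above background. Most CC ligands and receptors lie furthest left in dishes, and Ccl25, Ccl5 and Cxcl10 do not.

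The genotype comparison in culture asked how the lines differ without a host. Of the 48 tested genes, 8 were called higher and 7 lower in Keap1 null dishes at a limma adjusted p below 0.05, beside 21.1% of all 22919 targets called in either direction, 11.4% higher and 9.78% lower. The share called among the genes was 31.2%, with a median log2 difference of -0.05, the same as over all targets at 2 decimals. In allografts, 7 were called higher and 24 lower in Keap1 null, beside 41.8% of all targets called, 20.5% higher and 21.3% lower. The share among the genes was 64.6%, with a median of -0.86, against 0.0043 over all targets. By class, CC ligands had 12 of 16 lower and 0 higher, the other ligands 6 of 14 lower and 3 higher, receptors 6 of 14 lower and 1 higher, and atypical receptors 0 of 4 lower and 3 higher. Every call in these counts had no overlap between the groups' arrays and the same sign on both slides. A call with 2 arrays per group nearly forces both, so they add no support.

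**Figure D2:**
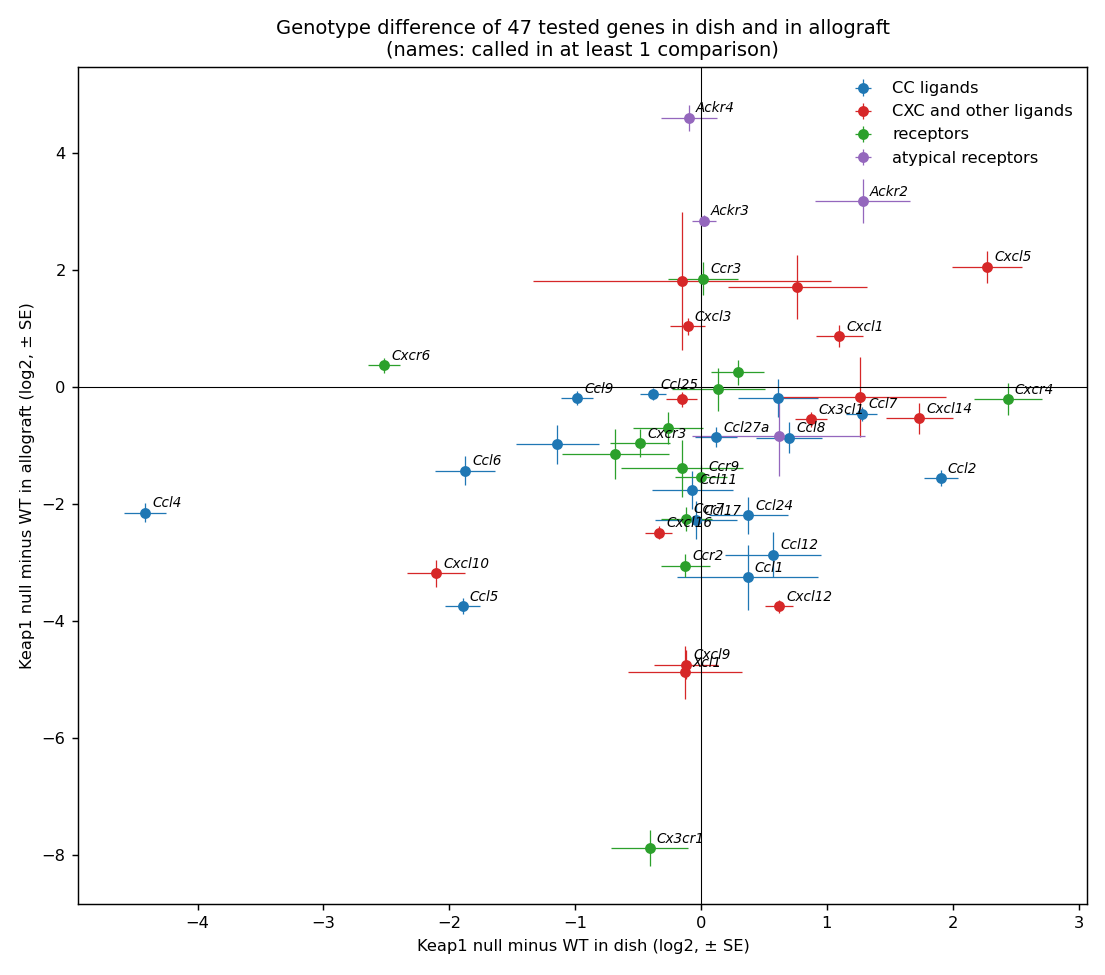
Log2 difference between Keap1 null and WT (± SE) in dishes (x axis) and in allografts (y axis) for 47 of the 48 tested genes, coloured by class, with names for genes called in at least 1 of the 2 comparisons. Cxcl1 and Cxcl5 lie in the upper right, Ccl4, Ccl5 and Cxcl10 in the lower left, and Ccl2, Ccl7, Cx3cl1 and Cxcl12 in the lower right.

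Genes listed as ligands of CCR2, which recruit monocytes, were called lower in Keap1 null allografts in 4 of 4 cases. Among them, Ccl8 is listed by the receptor of the human protein. The calls for Ccl7 and Ccl8 each ended under 9 alternatives. Log2 Ccl2 read 2.84 and 2.86 in culture for WT against 4.76 and 4.75 for Keap1 null, and as allografts it read 5.30 and 5.62 for WT against 4.01 and 3.81 for Keap1 null. Ccl2, the main monocyte attractant, was thus at its highest in WT allografts and at its lowest in WT dishes, with no overlap between any groups. It was 3.74-fold higher in Keap1 null dishes (1.90 ± 0.13 SE, adjusted p = 0.0004) and 2.92-fold lower in Keap1 null allografts (-1.55 ± 0.13 SE, adjusted p = 0.000371). In bulk RNA, fewer cells of a type and less RNA per cell cannot be told apart, here and in every result below.

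Log2 Ccl7 read -1.68 and -1.67 in culture for WT against -0.34 and -0.45 for Keap1 null, and as allografts it read 2.69 and 2.81 for WT against 2.15 and 2.44 for Keap1 null. Ccl7, a second monocyte attractant beside Ccl2 on chromosome 11, was, like Ccl2, higher in Keap1 null in dishes and lower in Keap1 null allografts. It was 2.42-fold higher in Keap1 null dishes (1.28 ± 0.12 SE, adjusted p = 0.00139) and 1.37-fold lower as allografts (-0.45 ± 0.12 SE, adjusted p = 0.0305), where the call ended without any of 7 of the 8 single arrays (adjusted p up to 0.132). Log2 Ccl12 read -8.66 and -8.92 in culture for WT against -7.61 and -8.83 for Keap1 null, and as allografts it read 3.18 and 3.45 for WT against 0.50 and 0.41 for Keap1 null. Ccl12, a mouse chemokine of the same group, was at background throughout culture and was 7.26-fold lower in Keap1 null allografts (-2.86 ± 0.38 SE, adjusted p = 0.00209).

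Log2 Ccl8 read -5.53 and -6.12 in culture for WT against -5.03 and -5.22 for Keap1 null, and as allografts it read 3.50 and 3.06 for WT against 2.23 and 2.62 for Keap1 null. Ccl8, listed here by the receptor of the human protein and known in the mouse as a CCR8 agonist, was well above background in all groups and lay lower in Keap1 null allografts by 1.81-fold (-0.86 ± 0.26 SE, adjusted p = 0.0435), a call that ended without any single allograft array or either Keap1 null dish array (adjusted p up to 0.188). In dishes the difference of Ccl8 was 0.70 and was not called (adjusted p = 0.123).

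Ccr2, the receptor of Ccl2, Ccl7 and Ccl12, carried by inflammatory monocytes, was dim in culture. Log2 Ccr2 read -8.39 and -8.94 in culture for WT against -8.72 and -8.85 for Keap1 null, and as allografts it read 1.13 and 1.30 for WT against -1.87 and -1.79 for Keap1 null. Its 4 dish values were not well above background, and its WT allograft values lay above its Keap1 null allograft values. Ccr2 was 8.27-fold lower in Keap1 null allografts (-3.05 ± 0.19 SE, adjusted p = 0.000115), and this call was kept under every alternative in which it could be tested.

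Of 17 tested markers of macrophages and monocytes, 12 were called lower and 2 higher in Keap1 null allografts, with Adgre1, the F4/80 antigen, 10.4-fold lower, C1qb 7.61-fold, C1qa 7.14-fold and Fcgr1 6.32-fold lower. Those higher, named after their values were seen, were the monocyte antigens Ly6c2, 2.62-fold, and Cd14, 1.48-fold. Their summed scaled intensity (1 is the 75th percentile) was 127.4 to 141.3 on WT and 85.1 to 86.6 on Keap1 null allograft arrays, against 6.68 to 14.2 in dishes. Of the 17, 82.4% were called, beside 41.8% of all targets called between allografts, 20.5% higher and 21.3% lower. Allograft counts of the families and lists below stand beside the same shares. All 17 markers were well above background on every allograft array. Their part in the Ccr2, Ccl2 and Ccl12 differences was not tested.

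Inflammatory CC ligands of the CCR1 group divided by growth. Of 5 tested, 4 were called lower and 0 higher in Keap1 null dishes, and 3 lower and 0 higher in the allografts. Log2 Ccl5 read 4.32 and 4.10 in culture for WT against 2.44 and 2.19 for Keap1 null, and as allografts it read 3.72 and 3.51 for WT against -0.17 and -0.08 for Keap1 null. Ccl5, or RANTES, was at or above the 75th percentile in every group but Keap1 null allografts, and its 4 groups did not overlap. It was 3.72-fold lower in Keap1 null dishes (-1.89 ± 0.14 SE, adjusted p = 0.000468) and 13.4-fold lower as allografts (-3.74 ± 0.14 SE, adjusted p = 2.26e-05).

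Log2 Ccl4 read -1.02 and -1.28 in culture for WT against -5.42 and -5.71 for Keap1 null, and as allografts it read -0.66 and -0.52 for WT against -2.87 and -2.60 for Keap1 null. Ccl4, also called MIP-1β, was lowest in Keap1 null dishes and highest in WT allografts. In allografts it was 4.42-fold lower in Keap1 null (-2.14 ± 0.16 SE, adjusted p = 0.000227), a smaller difference than in dishes (-4.42 ± 0.16 SE), and the 2 differences were themselves unequal (interaction 2.28 ± 0.23 SE, adjusted p = 0.00109). Log2 Ccl6 read -6.66 and -6.79 in culture for WT against -8.24 and -8.96 for Keap1 null, and as allografts it read 4.10 and 4.15 for WT against 2.56 and 2.84 for Keap1 null. Ccl6, a macrophage product, did not stand well above background in culture, so no dish fold is given, and it was 2.68-fold lower in Keap1 null allografts (-1.42 ± 0.24 SE, adjusted p = 0.00535).

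Log2 Ccl9 read -4.06 and -4.29 in culture for WT against -5.22 and -5.10 for Keap1 null, and as allografts it read 2.98 and 3.08 for WT against 2.75 and 2.94 for Keap1 null. Ccl9 was 1.98-fold lower in Keap1 null dishes (-0.99 ± 0.12 SE, adjusted p = 0.00361), where the call ended with another background correction (normexp, -0.99 becoming -0.48, adjusted p = 0.073). Its allograft difference was -0.18 and was not called (adjusted p = 0.296). Ccl3, or MIP-1α, lay at -1.67 and -1.05 in WT and -2.50 and -2.16 in Keap1 null allografts, without overlap and without a call (adjusted p = 0.0612).

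Ccr1, a receptor of these ligands, was not called between the lines: it was well above background on both WT and on 1 of 2 Keap1 null allograft arrays, with a difference of -1.38 ± 0.48 SE (adjusted p = 0.0665).

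**Figure D3:**
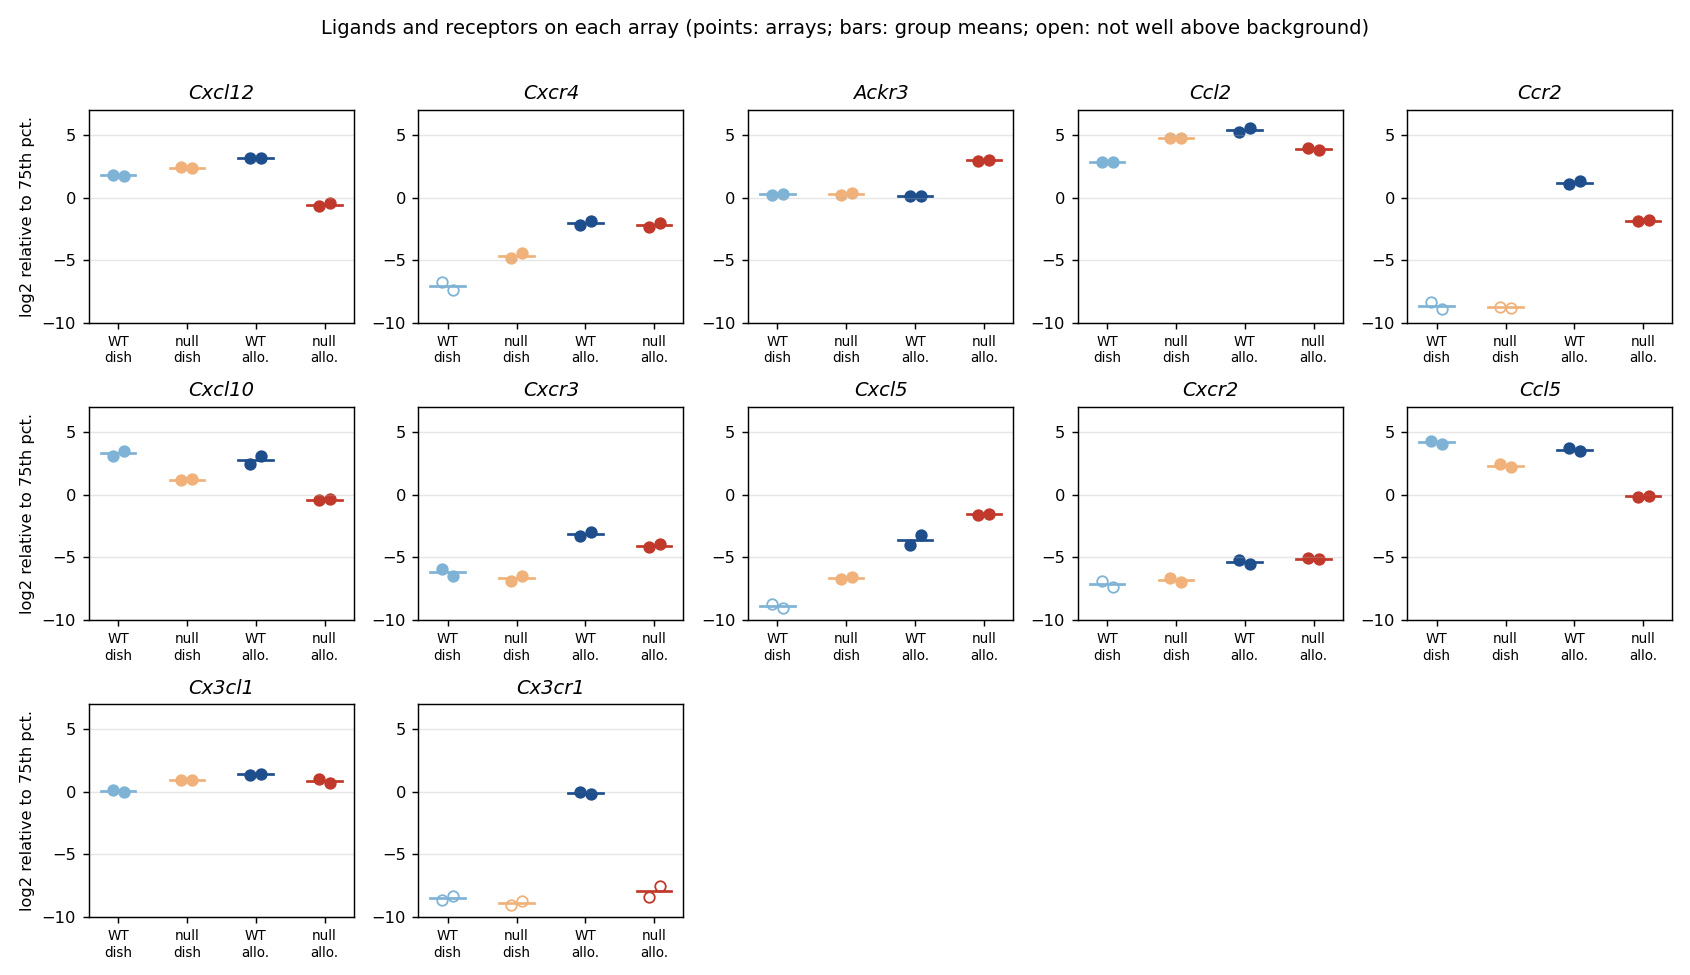
Log2 intensity over the 75th percentile of its array (y axis) on each of 8 arrays for 12 ligands and receptors that act together, with points for arrays, bars for group means and open points where neither array of the group was well above background. Cxcl12 is lowest and Ackr3 highest in Keap1 null allografts, and Cx3cr1 is above background in WT allografts alone.

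Ligands of the eosinophil receptor CCR3 and of the T cell receptors CCR4 and CCR8 were lower in Keap1 null allografts in 4 of 4 tested cases. Log2 Ccl11 read -8.58 and -8.55 in culture for WT against -8.91 and -8.36 for Keap1 null, and as allografts it read -0.34 and -0.06 for WT against -2.39 and -1.51 for Keap1 null. Log2 Ccl24 read -8.70 and -8.99 in culture for WT against -8.15 and -8.79 for Keap1 null, and as allografts it read -0.37 and -0.64 for WT against -3.05 and -2.34 for Keap1 null. Both eotaxins were at background in every dish, and their WT allograft values lay above the Keap1 null ones without overlap. Ccl11 was 3.36-fold lower (-1.75 ± 0.32 SE, adjusted p = 0.00716) and Ccl24 4.56-fold lower (-2.19 ± 0.31 SE, adjusted p = 0.00274).

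The receptor Ccr3 went against its ligands. Log2 Ccr3 read -5.98 and -5.65 in culture for WT against -6.22 and -5.37 for Keap1 null, and as allografts it read -5.05 and -4.94 for WT against -3.09 and -3.18 for Keap1 null. Keap1 null allografts held its highest values, and the other 6 arrays lay between -6.22 and -4.94. Ccr3 was 3.62-fold higher in Keap1 null allografts (1.86 ± 0.28 SE, adjusted p = 0.00336). Of 7 tested markers of mast cells, eosinophils and basophils, 5 were called higher and 1 lower in Keap1 null allografts. The mast cell proteases led them, with Mcpt4 17.8-fold, Tpsb2 12.8-fold, Cpa3 11.9-fold and Cma1 9.02-fold higher. Their summed intensity was 8.02 to 12.6 on Keap1 null against 1.47 to 1.67 on WT allograft arrays, and all 7 were well above background on both Keap1 null arrays. The eosinophil markers Epx and Siglecf did not pass the filter. The part of these cells in the Ccr3 difference was not tested.

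Log2 Ccl1 read -8.08 and -8.87 in culture for WT against -8.71 and -7.50 for Keap1 null, and as allografts it read -5.06 and -4.67 for WT against -8.70 and -7.54 for Keap1 null. Ccl1, the CCR8 ligand, was well above background in WT allografts alone, where it was at least 3.55-fold higher than in Keap1 null allografts (-3.25 ± 0.56 SE, adjusted p = 0.00556). Ccl17, a CCR4 ligand made by dendritic cells, lay at -3.25 and -3.23 in WT and -5.78 and -5.24 in Keap1 null allografts and was 4.81-fold lower in the latter (-2.27 ± 0.33 SE, adjusted p = 0.0028). Its receptors Ccr4 and Ccr8 were among the genes that did not pass the filter.

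Of 6 homeostatic CC ligands, which position cells in lymphoid and barrier tissue, 3 were tested, with 1 called lower and 0 higher in each growth. Ccl19 was not called in either growth (0.61 in dishes and -0.18 in allografts), although its receptor Ccr7, which takes dendritic cells to lymph nodes, was 4.75-fold lower in Keap1 null allografts (-2.25 ± 0.20 SE, adjusted p = 0.000436). Ccl27a was 1.81-fold lower there (-0.85 ± 0.17 SE, adjusted p = 0.00923, ending at 0.051 without WT allograft array 1). Ccl25, the CCR9 ligand, was 1.3-fold lower in Keap1 null dishes (-0.38 ± 0.10 SE, adjusted p = 0.0486), and that call ended without any 1 of 6 arrays (adjusted p up to 0.222) and rested on 1 of its 2 probes. Its receptor Ccr9 was 2.88-fold lower in Keap1 null allografts (-1.53 ± 0.21 SE, adjusted p = 0.00219). Ccl19 and Ccl27a have near-identical copies in the mouse genome, which their probes may not tell apart.

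CXC ligands of CXCR2, which recruit neutrophils, were the ligand family with higher calls in Keap1 null allografts: 3 of 5 tested were higher and 0 lower. The genes of this family lie on chromosome 5, as do the CXCR3 ligands Cxcl9 and Cxcl10, which were lower. The 250 bases before the RefSeq start of Cxcl1, Cxcl3, Cxcl9 and Cxcl10 are given 5′ to 3′ on the gene's strand (assembly GRCm38.p6, used for sequence only).
Cxcl1, chr5:90890995-90891244, plus strand: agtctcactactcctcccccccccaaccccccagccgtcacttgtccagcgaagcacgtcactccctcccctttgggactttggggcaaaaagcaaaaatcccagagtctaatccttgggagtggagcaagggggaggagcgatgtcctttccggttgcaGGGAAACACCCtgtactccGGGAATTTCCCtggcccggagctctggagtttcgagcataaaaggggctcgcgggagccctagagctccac
Cxcl3, chr5:90785851-90786100, plus strand: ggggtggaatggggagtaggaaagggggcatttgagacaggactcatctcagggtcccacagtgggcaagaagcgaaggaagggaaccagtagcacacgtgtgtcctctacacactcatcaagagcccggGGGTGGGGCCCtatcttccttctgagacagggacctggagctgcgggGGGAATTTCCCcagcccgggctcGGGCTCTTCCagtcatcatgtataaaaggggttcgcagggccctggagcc
Cxcl9, chr5:92328080-92328329, minus strand: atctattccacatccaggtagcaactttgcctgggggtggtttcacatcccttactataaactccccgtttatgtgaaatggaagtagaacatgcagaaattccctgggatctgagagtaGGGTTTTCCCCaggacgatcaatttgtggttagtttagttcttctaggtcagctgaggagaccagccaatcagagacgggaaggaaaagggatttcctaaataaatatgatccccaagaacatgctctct
Cxcl10, chr5:92348890-92349139, minus strand: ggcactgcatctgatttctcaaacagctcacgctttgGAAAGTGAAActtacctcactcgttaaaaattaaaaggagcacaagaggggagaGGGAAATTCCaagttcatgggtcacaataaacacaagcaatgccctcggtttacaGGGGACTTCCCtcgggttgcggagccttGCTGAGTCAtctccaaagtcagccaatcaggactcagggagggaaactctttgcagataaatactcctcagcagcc
Capitals mark matches, on either strand, to 4 motifs: the NF-kB type (GGG and CC with 5 bases between them), the interferon response element type (GAAA and GAAA with 2 bases between them), the GAS type (TTCNNNGAA) and the antioxidant response element type (TGACNNNGC). Overlapping matches run together. The longest run of letters shared by the Cxcl1, Cxcl2 and Cxcl3 promoters is GGGAATTTCCC, which 14 of all 32851 promoters of the same length hold. It was picked because these promoters share it, so its rarity is not a test. Cxcl2, which holds it too, was not called between the lines. Cxcl10 holds an interferon response element type match, at position -213 relative to its start, and a TGACNNNGC match. Cxcl9 has neither. Promoters were found for 46 of the 59 genes, 50 promoters in all. The NF-kB type was in 54% of these against 45.8% of all promoters, the interferon response element type in 6% against 2.98%, TTCNNNGAA in 8% against 7.02%, and TGACNNNGC in 8% against 10.2%. These are matches of letters and not measured binding.

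Log2 Cxcl5 read -8.74 and -9.09 in culture for WT against -6.73 and -6.55 for Keap1 null, and as allografts it read -4.02 and -3.21 for WT against -1.59 and -1.52 for Keap1 null. Cxcl5 was higher in the Keap1 null line on every array of each growth, though in dishes it was well above background on 1 of 2 Keap1 null arrays and on no WT array. In allografts it was 4.17-fold higher (2.06 ± 0.28 SE, adjusted p = 0.00211). In dishes it was called (2.27 ± 0.28 SE, adjusted p = 0.00309), with no fold given because the bound for the dim group is below 1, and the call ended with the normexp correction (adjusted p = 0.76).

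Log2 Cxcl1 read -4.04 and -3.63 in culture for WT against -2.76 and -2.71 for Keap1 null, and as allografts it read -2.87 and -2.47 for WT against -1.85 and -1.75 for Keap1 null. Cxcl1, the mouse KC chemokine, was 2.14-fold higher in Keap1 null dishes (1.10 ± 0.19 SE, adjusted p = 0.0109) and 1.84-fold higher in the allografts (0.88 ± 0.19 SE, adjusted p = 0.0127). The dish call ended without either Keap1 null dish array (adjusted p up to 0.067), and the allograft call without WT allograft array 1 (0.059) or Keap1 null allograft array 2 (0.058). Log2 Cxcl3 read -8.72 and -9.06 in culture for WT against -9.03 and -8.96 for Keap1 null, and as allografts it read -3.66 and -3.49 for WT against -2.49 and -2.57 for Keap1 null. Cxcl3 was at background in dishes and 2.06-fold higher in Keap1 null allografts (1.04 ± 0.14 SE, adjusted p = 0.00216).

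Cxcl2, or MIP-2, lay at -4.63 and -4.47 in WT and -5.04 and -4.38 in Keap1 null allografts, overlapped and was not called (adjusted p = 0.875). The platelet chemokine Ppbp was at -2.82 and -2.56 and -0.78 and -1.17, higher in Keap1 null on both slides but without a call (adjusted p = 0.0525). Log2 Cxcr2 read -6.91 and -7.38 in culture for WT against -6.69 and -7.02 for Keap1 null, and as allografts it read -5.22 and -5.55 for WT against -5.09 and -5.16 for Keap1 null. Cxcr2, the neutrophil receptor of this family, did not differ by a call between the lines in dishes (0.29 ± 0.21 SE) or allografts (0.26 ± 0.21 SE, adjusted p = 0.386). Of 9 tested neutrophil markers, 5 were called higher and 2 lower in Keap1 null allografts, with Mmp9 5.75-fold and S100a8 4.27-fold higher and Mmp8 4.88-fold lower, and the granule gene Camp well above background in Keap1 null allografts alone. Their summed intensity was 11.3 to 12.1 on Keap1 null and 3.17 to 3.81 on WT allograft arrays. All 9 were well above background on the Keap1 null allograft arrays and 3 on the dish arrays. Their part in the ligand differences was not tested.

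Interferon-induced ligands of CXCR3, which draw NK and activated T cells, were lower in Keap1 null allografts in 2 of 2 cases. Log2 Cxcl10 read 3.13 and 3.49 in culture for WT against 1.16 and 1.24 for Keap1 null, and as allografts it read 2.46 and 3.11 for WT against -0.43 and -0.35 for Keap1 null. Cxcl10 was lower in the Keap1 null line on every array of each growth. It was 4.3-fold lower in dishes (-2.10 ± 0.23 SE, adjusted p = 0.00215) and 9.06-fold lower as allografts (-3.18 ± 0.23 SE, adjusted p = 0.000192). Log2 Cxcl9 read -8.67 and -8.87 in culture for WT against -8.99 and -8.79 for Keap1 null, and as allografts it read -2.80 and -2.04 for WT against -7.22 and -7.09 for Keap1 null. Cxcl9 was well above background in WT allografts alone and was at least 19.4-fold lower in Keap1 null allografts (-4.74 ± 0.25 SE, adjusted p = 6.52e-05).

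Log2 Cxcr3 read -5.94 and -6.48 in culture for WT against -6.90 and -6.49 for Keap1 null, and as allografts it read -3.28 and -2.97 for WT against -4.18 and -3.97 for Keap1 null. Their receptor Cxcr3 was 1.93-fold lower in Keap1 null allografts (-0.95 ± 0.24 SE, adjusted p = 0.022), a call that ended without WT allograft array 2 (adjusted p = 0.108) or without Keap1 null allograft array 1 (0.103) or 2 (0.054). Of 16 tested markers of T, B and NK cells, 10 were called lower and 1 higher there. The cytotoxic granule genes Gzma and Nkg7 were 14.5-fold and 7.87-fold lower, the NK receptor gene Klrd1 was 7.14-fold lower, and the NK receptor gene Ncr1 was well above background in WT allografts alone. Their summed intensity was 3.17 to 3.30 on WT and 0.665 to 0.808 on Keap1 null allograft arrays, where 10 or 11 of the 16 were well above background. Cd3e and Cd4 were not called (0.37 and -0.17), and the part of these cells in the Cxcl9, Cxcl10 and Cxcr3 differences was not tested.

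Log2 Xcl1 read -8.63 and -8.81 in culture for WT against -8.96 and -8.74 for Keap1 null, and as allografts it read -3.99 and -3.00 for WT against -8.92 and -7.80 for Keap1 null. Xcl1, the C chemokine made by NK and CD8 T cells, was well above background in WT allografts alone and was at least 9.19-fold lower in Keap1 null allografts (-4.87 ± 0.45 SE, adjusted p = 0.000483). Its receptor Xcr1, found on cross-presenting dendritic cells, was the gene with no call in any comparison, and its allograft values overlapped at -4.24 and -3.59 in WT and -4.33 and -3.56 in Keap1 null. Of 7 tested dendritic cell markers, 4 were called lower and 2 higher, with H2-Aa 6.33-fold, H2-Ab1 5.66-fold lower and Flt3 5.88-fold higher. Their summed intensity was 8.08 to 8.31 on WT and 3.02 to 3.23 on Keap1 null allograft arrays.

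Cxcl12, the stromal factor that binds CXCR4 and ACKR3, turned between the growths. Log2 Cxcl12 read 1.84 and 1.74 in culture for WT against 2.48 and 2.34 for Keap1 null, and as allografts it read 3.16 and 3.21 for WT against -0.66 and -0.45 for Keap1 null. Its highest values were in WT allografts and its lowest in Keap1 null allografts, and no groups overlapped. In dishes Cxcl12 was 1.54-fold higher in Keap1 null (0.62 ± 0.11 SE, adjusted p = 0.0131), a call that ended without WT dish array 2 (adjusted p = 0.066) or without Keap1 null dish array 1 (0.093) or 2 (0.054), with the median as scale (0.066) and with the mean of its probes (0.072). In allografts it was 13.4-fold lower (-3.74 ± 0.11 SE, adjusted p = 1.33e-05). The other Cxcl12 probe, designed on another transcript, gave 7.12-fold lower in allografts and lay 1.46-fold higher in dishes without a call.

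Log2 Cxcr4 read -6.73 and -7.41 in culture for WT against -4.81 and -4.45 for Keap1 null, and as allografts it read -2.15 and -1.87 for WT against -2.37 and -2.05 for Keap1 null. Cxcr4, its signalling receptor, was not well above background in WT dishes, and Keap1 null dishes lay at least 3.95-fold above them (2.44 ± 0.27 SE, adjusted p = 0.00218), a call that ended with the normexp correction (adjusted p = 0.067). In allografts it did not differ by a call (-0.20 ± 0.27 SE, adjusted p = 0.607). Log2 Ackr3 read 0.21 and 0.33 in culture for WT against 0.24 and 0.35 for Keap1 null, and as allografts it read 0.17 and 0.12 for WT against 2.96 and 3.03 for Keap1 null. Ackr3, which removes Cxcl12, was alike in 3 groups, from 0.12 to 0.35, and stood above them in Keap1 null allografts. It was 7.19-fold higher there (2.85 ± 0.09 SE, adjusted p = 1.63e-05).

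The other atypical receptors followed Ackr3 in 2 of 3 cases. Log2 Ackr2 read -7.55 and -7.67 in culture for WT against -6.04 and -6.60 for Keap1 null, and as allografts it read -2.52 and -3.57 for WT against 0.33 and -0.05 for Keap1 null. Ackr2, a scavenger of inflammatory CC chemokines, was 9.08-fold higher in Keap1 null allografts (3.18 ± 0.38 SE, adjusted p = 0.00126). Log2 Ackr4 read -8.72 and -9.11 in culture for WT against -9.02 and -9.01 for Keap1 null, and as allografts it read -7.56 and -6.99 for WT against -2.77 and -2.57 for Keap1 null. Ackr4, a scavenger of Ccl19, Ccl21a and Ccl25, was 24.4-fold higher there (4.61 ± 0.22 SE, adjusted p = 4.64e-05), while in WT allografts it was well above background on 1 of 2 arrays. Ackr1, the Duffy receptor of red cells and venules, was not called (-0.83 ± 0.69 SE, adjusted p = 0.389). Of 12 tested endothelial markers, 5 were called lower and 0 higher in Keap1 null allografts. That is 41.7% called, near the 41.8% of all targets, of which 20.5% were higher and 21.3% lower. The summed intensity of the endothelial markers was 17.96 to 19.4 on WT and 15.5 to 17.3 on Keap1 null allograft arrays.

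Log2 Cx3cr1 read -8.67 and -8.31 in culture for WT against -9.03 and -8.77 for Keap1 null, and as allografts it read -0.005 and -0.18 for WT against -8.41 and -7.53 for Keap1 null. Cx3cr1, the fractalkine receptor of monocytes, macrophages and NK cells, was well above background in WT allografts alone. It was at least 97-fold lower in Keap1 null allografts (-7.88 ± 0.30 SE, adjusted p = 2.44e-05). Its dimmer probe gave at least 4.27-fold lower, and without either WT allograft array this probe became the brightest, with a log2 difference of -2.60 or -2.53. Log2 Cx3cl1 read 0.16 and -0.0025 in culture for WT against 0.95 and 0.96 for Keap1 null, and as allografts it read 1.38 and 1.40 for WT against 0.99 and 0.69 for Keap1 null. The ligand Cx3cl1 was 1.84-fold higher in Keap1 null dishes (0.88 ± 0.13 SE, adjusted p = 0.00597) and 1.46-fold lower as allografts (-0.55 ± 0.13 SE, adjusted p = 0.017), where the call ended without WT allograft array 1 (adjusted p = 0.066) or 2 (0.074) or without Keap1 null allograft array 2 (0.055).

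Log2 Cxcr6 read -5.16 and -5.00 in culture for WT against -7.69 and -7.52 for Keap1 null, and as allografts it read -3.91 and -3.68 for WT against -3.37 and -3.47 for Keap1 null. Cxcr6, a receptor of resident lymphocytes, was at least 3.09-fold lower in Keap1 null dishes (-2.52 ± 0.13 SE, adjusted p = 0.000127), where it was not well above background on either Keap1 null array. In allografts the difference of Cxcr6 was 0.37 ± 0.13 SE and was not called (adjusted p = 0.0612). Its ligand Cxcl16 lay at 1.51 and 1.52 in WT and -1.01 and -0.92 in Keap1 null allografts, 5.59-fold lower (-2.48 ± 0.11 SE, adjusted p = 3.22e-05), with no call in dishes (adjusted p = 0.0816).

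Log2 Cxcl14 read -7.29 and -7.83 in culture for WT against -5.70 and -5.96 for Keap1 null, and as allografts it read 3.91 and 3.29 for WT against 3.00 and 3.15 for Keap1 null. Cxcl14, a ligand made by epithelia and fibroblasts, was not well above background in WT dishes, and Keap1 null dishes lay at least 1.72-fold above them (1.74 ± 0.27 SE, adjusted p = 0.00735). That call ended without Keap1 null dish array 1 (adjusted p = 0.051) and with normexp (0.625). In allografts it was not called (adjusted p = 0.168). Log2 Pf4 read -8.52 and -8.67 in culture for WT against -8.89 and -8.61 for Keap1 null, and as allografts it read 4.18 and 4.17 for WT against 4.01 and 3.92 for Keap1 null. Pf4, platelet factor 4, was at background on all 4 dish arrays and far above it on all 4 allograft arrays, with no call between the lines in allografts (-0.21 ± 0.12 SE, adjusted p = 0.24). Of 7 tested platelet and megakaryocyte markers, 3 were called higher and 2 lower in Keap1 null allografts, with a summed intensity of 5.08 to 5.90 against 3.50 to 4.34 in WT. Cxcl13, a B cell attractant, had arrays of 1 group as far apart as -5.51 and -2.53 and was not called between the lines.

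The growth comparison set allografts against dishes within each line. Of the 48, 41 were called higher and 2 lower in WT allografts than in WT dishes, beside 68.1% of all targets called, 35.9% higher and 32.2% lower. In the Keap1 null line 36 were higher and 6 lower, beside 64.9% of all targets, 35.8% higher and 29.1% lower. The median differences were 3.82 and 2.64, against -0.02 and 0.03 over all targets. With the median of each array as scale, the median of all targets moved to -1.04 in WT and -0.84 in Keap1 null, and the counts of the genes became 34 higher and 6 lower in WT and 32 and 9 in Keap1 null. Many genes passed the filter through the allografts alone, and among the 18 well above background on all 8 arrays the counts were 12 higher and 2 lower in WT and 10 higher and 6 lower in Keap1 null. The median of all targets under that filter was -0.23 in WT and -0.16 in Keap1 null. Shares of all targets called are given for the main filter and scale only, so whether the counts under these alternatives exceed such shares was not tested.

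Higher calls in both lines held for 34 genes. Of the calls, 25 in WT and 16 in Keap1 null were against a dim group and have only a bound, and in Keap1 null Cx3cr1, Cxcl9 and Cxcr5 were called with both groups at background and have no fold. Pf4 rose at least 1763-fold in WT (12.77 ± 0.12 SE, adjusted p = 5.91e-07) and at least 1637-fold in Keap1 null (12.72 ± 0.12 SE, adjusted p = 1.14e-06). Ccl6 rose at least 1694-fold and at least 679-fold, Ccl12 at least 972-fold and at least 143-fold, and Ccl9, measured in every group, 147-fold and 257-fold. Ccl8, also measured in every group, rose 551-fold in WT and 187-fold in Keap1 null. Among receptors, Ccr2 rose at least 227-fold and at least 29.4-fold. The eotaxins Ccl11 and Ccl24 rose at least 85-fold and at least 68.8-fold in WT. Cxcl14 rose at least 1186-fold in WT and 478-fold in Keap1 null, and Cxcl3 at least 18.1-fold in Keap1 null.

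**Figure D4:**
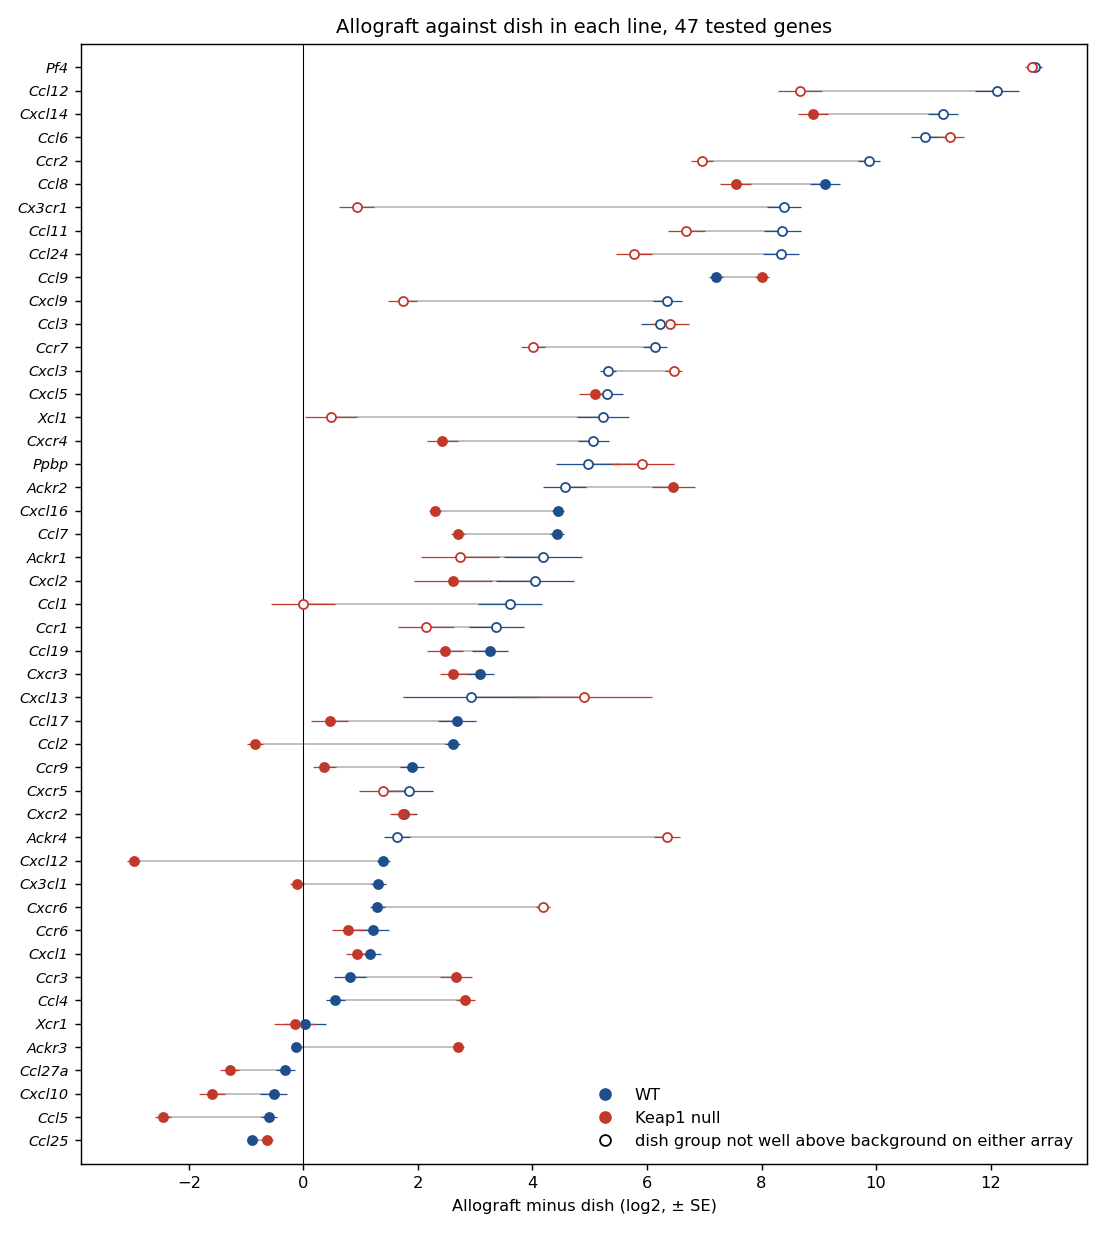
Log2 difference between allograft and dish (x axis, ± SE) for 47 of the 48 tested genes in WT and in Keap1 null, joined by a line, with open points where the dish group was not well above background on either array. Pf4 is at the top with both lines near 12.7, and Cxcl12 and Ccl2 have their points on opposite sides of 0.

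A few genes were lower in tumours than in culture. Ccl5 fell 1.51-fold in WT (-0.60 ± 0.14 SE, adjusted p = 0.00991) and 5.44-fold in Keap1 null (-2.44 ± 0.14 SE, adjusted p = 3.73e-05), and the WT call ended without WT dish array 1 (adjusted p = 0.054) or WT allograft array 2 (0.055), with quantile normalization (0.541) and in the unscaled table (0.421). Ccl25 fell 1.86-fold and 1.55-fold. Ccl2 rose 6.09-fold in WT (2.61 ± 0.13 SE, adjusted p = 2.28e-05) and fell 1.8-fold in Keap1 null (-0.84 ± 0.13 SE, adjusted p = 0.00221). Cxcl12 rose 2.63-fold in WT (1.40 ± 0.11 SE, adjusted p = 0.00012) and fell 7.82-fold in Keap1 null (-2.97 ± 0.11 SE, adjusted p = 9.77e-06). Ackr3, Cxcl13, Ccl27a and Cxcl10 were called in Keap1 null alone, where Ackr3 rose 6.51-fold and Cxcl10 fell 3.02-fold, and the interaction was not called for Cxcl10 (adjusted p = 0.0525) or Cxcl13 (adjusted p = 0.431). In WT, Cxcl10 was also called lower with the replicate block (-0.52, adjusted p = 0.037), with normexp (0.049), with the median as scale (-1.54) and without WT allograft array 2 (-0.84, adjusted p = 0.013). With the median as scale Ackr3 was called lower in WT (-1.14), near the shift of all targets given above. The Cxcl10 interaction passed under 6 of the alternatives (adjusted p from 0.015 to 0.040). Ccl1, Ccl17, Ccr9, Cx3cl1 and Xcl1 were called in WT alone, each higher.

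The interaction tested whether the genotype difference was the same in both growths. Of the 48 genes, 30 were called, 22 with a lower and 8 with a higher difference in allografts, beside 32.9% of all targets, 15.8% higher and 17% lower. In 12 of the 30, no dish array was well above background, so their dish difference compares values at background. In 12 others every dish array was well above background, and 4 of these, Ccl2, Ccl7, Cx3cl1 and Cxcl12, were called higher in Keap1 null dishes and lower in Keap1 null allografts. Cxcl12 had an interaction of -4.36 ± 0.16 SE (adjusted p = 8.21e-05) and Ccl2 of -3.45 ± 0.19 SE (adjusted p = 0.00016). Cxcl1 and Cxcl5, higher in Keap1 null in both growths, had interactions of -0.22 ± 0.27 SE (adjusted p = 0.585) and -0.21 ± 0.39 SE (adjusted p = 0.741).

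Genes that carry chemokine signals inside cells were read from a list of 30, of which 28 were tested. In Keap1 null allografts 16 were called lower and 4 higher, a median of -0.75. The leukocyte genes Rgs18 and Dock2 were 7.4-fold and 5.26-fold lower, and Rgs2 and Grk5, regulators of receptor signalling found in many cell types, were 7.16-fold and 4.02-fold higher. In dishes 5 were higher and 5 lower, 35.7% called beside 21.1% of all targets, 11.4% higher and 9.78% lower. Of 16 tested genes for other chemoattractants, their receptors and chemokine trimming, 11 were lower and 0 higher in Keap1 null allografts, a median of -0.92, with the leukotriene receptor Ltb4r1 6.98-fold, Cd74 5.16-fold, Ccrl2 4.62-fold and the complement receptor C3ar1 4.3-fold lower.

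Cytokines and transcription factors known to induce chemokines had calls in each direction. Of 25 tested, 14 were called lower and 5 higher in Keap1 null allografts, a median of -0.53. Il6, an inflammatory cytokine, was 12.3-fold higher (3.62 ± 0.11 SE, adjusted p = 1.37e-05), although lower in Keap1 null dishes (-1.17 ± 0.11 SE, adjusted p = 0.00123). The interferon gene Ifnb1 was called lower (adjusted p = 0.000218) and was well above background in WT allografts alone, and the interferon factors Irf7 and Irf8 were 8.52-fold and 6.88-fold lower. Fibroblast markers, of the labelled cell type, had 4 of 14 called higher and 6 lower in Keap1 null allografts, with a summed intensity of 859 to 888.9 on WT and 953.5 to 1019 on Keap1 null arrays. In Keap1 null dishes 8 of the 14 were called higher and 1 lower, 64.3% called beside 21.1% of all targets, 11.4% higher and 9.78% lower. The median log2 difference of these markers between allograft and dish was 4.46 in WT and 2.77 in Keap1 null.

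**Figure D5:**
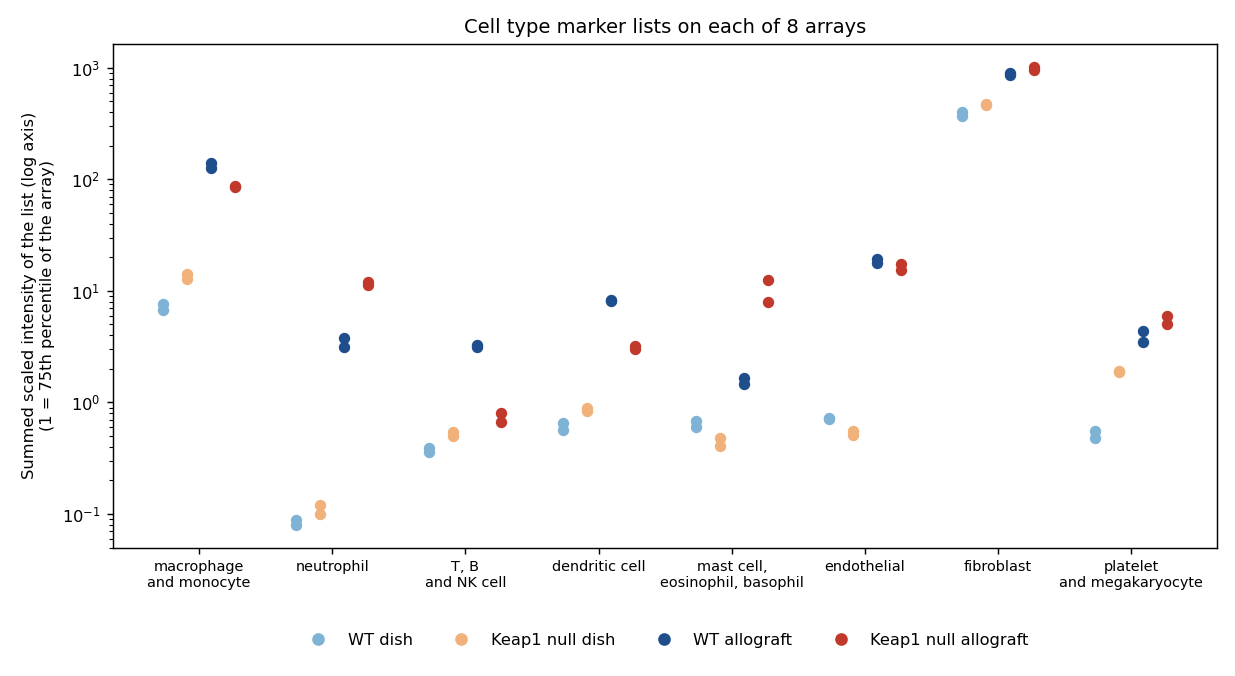
Summed scaled intensity of each cell type marker list (y axis, log scale, 1 is the 75th percentile of the array) on each of 8 arrays, coloured by group. In Keap1 null allografts the neutrophil and mast cell sums lie above WT and the macrophage, dendritic and T, B and NK cell sums below it.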

How the data were processed

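The deposited scanner files hold intensities of 1-colour (Cy3) Agilent arrays, made, per the file headers, with Agilent Feature Extraction 10.7.3.1 and with background and a spatial trend subtracted and no scaling between arrays. The median processed intensity was 44.8 to 137.4 and the 75th percentile 1084 to 1546. The number of arrays limits the precision. Probe names come from accessions matched to RefSeq (GRCm38.p6), used for names, neighbour order and promoters, since the headers name the build mm9.

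Control and outlier spots were left out, log2 values were scaled to the 75th percentile of each array, and of several tested probes the one with the highest mean stood for the gene. A probe was tested when it stood well above background throughout 1 group or more (30355 of 41174, 22919 targets). One limma 3.58.1 fit (R 4.3.3) of 4 group means over 8 arrays, with 4 residual degrees of freedom, gave 5 comparisons, adjusted by Benjamini-Hochberg over all targets. With 2 arrays against 2, an exact permutation test cannot go below 0.333, so none is given. A fold against a group not well above background is a bound, taken against the higher of the lowest well above background signal and the probe's own value on each array. The fit was tested on simulated data.

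The planned normexp alternative used the median signal, since the deposited columns hold no mean spot signal. Replicate number, slide and scan coincide: same-numbered arrays deviated together (correlations 0.247 to 0.429 between groups), so the number was used as a block in an alternative. In all, 17 alternatives were tried, among them scaling, background, filter, probe choice and each array left out.

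Values per array are given for the 10 called genes with the largest differences in each comparison, for ligand and receptor sets, and for genes beside them, and up to 4 called genes are named for each other list. The members and lists were chosen with earlier results of these data known. One tested gene enters the counts but is not reported here by itself. Protein sequences were not used here.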

Additional observations from a re-analysis of the deposited data

Results flagged for a closer look

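The genotype difference in allografts minus that in dishes (log2, the interaction term of the limma fit) passed the test for 30 genes, 29 of which are listed here. In allografts the number of injected cells also differed between the lines, so its part in these values cannot be told apart from that of the line. Lower in allografts among CC ligands were Ccl1 (-3.62), Ccl2 (-3.45), Ccl12 (-3.43), Ccl24 (-2.56), Ccl17 (-2.23), Ccl5 (-1.85), Ccl7 (-1.73), Ccl11 (-1.68), Ccl8 (-1.56) and Ccl27a (-0.97). Lower among the other ligands were Xcl1 (-4.74), Cxcl9 (-4.62), Cxcl12 (-4.36), Cxcl14 (-2.27), Cxcl16 (-2.15) and Cx3cl1 (-1.42). Lower among the receptors were Cx3cr1 (-7.47), Ccr2 (-2.92), Cxcr4 (-2.64), Ccr7 (-2.13) and Ccr9 (-1.53).

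Higher in allografts were the atypical receptors Ackr4 (4.71), Ackr3 (2.82) and Ackr2 (1.90), the receptors Cxcr6 (2.89) and Ccr3 (1.84), and the ligands Ccl4 (2.28), Cxcl3 (1.15) and Ccl9 (0.80). Without at least 1 of the 8 arrays, left out singly, the calls for Ackr2, Ccl1, Ccl11, Ccl17, Ccl27a, Ccl8, Ccl9 and Ccr3 ended (adjusted p up to 0.116, 0.061, 0.107, 0.051, 0.085, 0.076, 0.069 and 0.055). For 12 of the 30, no dish array was well above background. Cx3cr1, Xcl1, Cxcl9 and Ccl1 were well above it in WT allografts alone, so their values are fitted differences to background and not measured sizes.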

How the results depend on the processing

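Of the calls, 7 of 15 in dishes, 25 of 31 between allografts, 31 of 43 for growth in WT, 31 of 42 for growth in Keap1 null and 18 of 30 interactions passed under every alternative in which the gene was tested. With 1 array left out the counts were 11 to 15, 27 to 32, 40 to 43, 38 to 41 and 25 to 29. With the replicate block they were 16, 33, 45, 43 and 31, and every call was kept, so the pairing ended none. The normexp correction on the median signal, a column chosen after seeing the data, left 9 of the dish calls. Testing only probes well above background on all arrays left 18 of the genes, and the counts were 13 between allografts, 14 and 16 for growth, and 13 for the interaction, with fewer genes tested. Signal over background limits dish values: 36 of the 59 genes were not well above it on either WT dish array.

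Directions turned in these cases. With normexp, growth in WT was -0.091 for Ackr4 and -0.11 for Cxcr5, and the Cxcl5 interaction, uncalled before, was 1.53. With the median as scale, growth in WT was -0.47 for Ccl4 and -0.20 for Ccr3, and growth in Keap1 null was -0.091 for Ccr6. Quantile normalization gave -0.27 for Ccr3 in WT and -0.12 for Ccr6 in Keap1 null. Cx3cr1 growth in Keap1 null was -0.15 to 1.37 with 1 array left out, -0.15 without either WT allograft array and with only the groups compared, where its other probe was the brightest. Apart from that switch of probe, the cause was not tested. The Cxcl10 interaction, just short of the threshold, passed with the replicate block (adjusted p = 0.021), quantile normalization (0.021), the unscaled table (0.033), normexp (0.027), probes well above background on all arrays (0.040) and without WT allograft array 1 (0.015).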

Other observations

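Genes of the part that follow each other on a chromosome did not always move alike between the lines, which was looked at after the values were seen. The order holds only the genes read here, and other genes may lie between them. In the RefSeq order on chromosome 9, Ccr1, Ccr1l1, Ccr3 and Ccr2 follow each other. Ccr3 was 3.62-fold higher in Keap1 null allografts, while Ccr2, next in that order, was 8.27-fold lower. On chromosome 5, Cxcl5, Ppbp, Pf4, Cxcl3, Cxcl15, Cxcl1, Cxcl2, Cxcl9, Cxcl10 and Cxcl13 stand in this order. Of the 9 tested, Cxcl5, Cxcl3 and Cxcl1 were called higher and Cxcl9 and Cxcl10 lower in Keap1 null allografts, and the other 4 were not called. On chromosome 11, of the 11 genes from Ccl2 to Ccl4 in that order, 9 were called lower in Keap1 null allografts and 0 higher, with Ccl9 and Ccl3 not called. Among those lower, the calls for Ccl7 and Ccl8 each ended under 9 alternatives. Both chromosome counts stand beside 41.8% of all targets called between allografts, 20.5% higher and 21.3% lower.

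In genes with 2 tested probes, 11 in all, no comparison had probes called in opposite directions. A call rested on 1 of the 2 probes for Ccl25 and Cxcl12 in dishes, for Cxcr2 in growth of WT, and for Ccl19 and Cx3cr1 in growth of Keap1 null.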
